A study of Mus musculus with 3 samples.

Results

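Promoter peaks of JMJD3 that also carried Smad3 were examined in mouse neural stem cells by chromatin immunoprecipitation followed by sequencing (ChIP-seq). The peaks were chosen by position: a JMJD3 peak was taken when its midpoint lay at most 1000 bp from the transcription start site (TSS) listed as closest and it shared at least 1 bp with a Smad3 peak. This held for 14835 of 63154 JMJD3 peaks (23.5%), and these are called shared promoter peaks here. They named 9141 genes through 9708 transcripts. Since both peak positions chose them, the overlap itself is a description and no test was made of it.

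The cells were wild-type neural stem cells cultured from the cerebral cortex of E12.5 embryos, with EGF at 20 ng/ml and FGF at 10 ng/ml. Both immunoprecipitations, of endogenous JMJD3 and of endogenous Smad3, followed TGFb at 5 ng/ml for 30 minutes, so all groups share the genotype, the culture and the treatment. An input library without antibody was also labelled as TGFb-treated and was not analysed here. There was 1 library per antibody, with no untreated library, and whether both came from the same culture is not stated. No value therefore shows an effect of TGFb, and no difference could be tested over replicates. Intervals are 95% exact (Clopper-Pearson) for shares and order-statistic for medians, and cover counting error over peaks or genes only.

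JMJD3, encoded by Kdm6b, removes methyl groups from lysine 27 of histone H3, a mark that Polycomb complexes place on silent genes. Smad3 is phosphorylated by activated TGF-beta receptors, enters the nucleus with Smad4 and binds short GTCT-type elements in DNA, often beside other factors. In neural progenitors both proteins act at regulatory regions, of which the promoter, the stretch around the TSS where transcription is initiated, is the class described here. Many mammalian promoters lie in CpG islands, stretches that keep the CpG dinucleotides lost from most of the genome, and these serve mainly widely expressed and developmental genes.

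Promoter sequences of 7 genes show what lies under these peaks. Of these, 6 were taken by the rule for named genes (Smad3, Sox2 and Nes among key genes, and Sin3a, Tgif1 and Sertad2, with the most bases in common), and Btbd17 was added after its values were seen, as an example with few CpG. Each runs 5′ to 3′ on the gene's strand from 250 bases before to 50 after a RefSeq start on GRCm38.p6. Capitals mark the Smad-type element CAGAC and the GC box GGGCGG, on either strand. In the mm9 peak lists, at least 291 of the 300 bases around each of these starts lay in JMJD3 and Smad3 peaks alike.
Smad3: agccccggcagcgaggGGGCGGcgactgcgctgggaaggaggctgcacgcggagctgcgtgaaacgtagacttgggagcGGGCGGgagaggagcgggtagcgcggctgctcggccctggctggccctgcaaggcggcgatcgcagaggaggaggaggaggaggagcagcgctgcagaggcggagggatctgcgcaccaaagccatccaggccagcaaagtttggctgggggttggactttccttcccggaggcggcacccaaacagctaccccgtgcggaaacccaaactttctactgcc
Sox2: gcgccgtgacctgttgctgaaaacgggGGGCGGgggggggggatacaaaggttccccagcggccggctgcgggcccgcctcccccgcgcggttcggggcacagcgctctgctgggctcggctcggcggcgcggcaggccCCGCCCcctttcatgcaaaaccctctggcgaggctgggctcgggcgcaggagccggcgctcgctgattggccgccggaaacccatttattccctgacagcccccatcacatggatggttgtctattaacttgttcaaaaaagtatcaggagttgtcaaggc
Nes: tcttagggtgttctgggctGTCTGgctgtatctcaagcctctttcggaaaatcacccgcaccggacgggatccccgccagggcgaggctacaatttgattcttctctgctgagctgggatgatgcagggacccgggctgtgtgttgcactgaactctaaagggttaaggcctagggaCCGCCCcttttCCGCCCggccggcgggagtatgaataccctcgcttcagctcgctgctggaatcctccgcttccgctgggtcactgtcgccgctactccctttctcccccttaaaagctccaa
Sin3a: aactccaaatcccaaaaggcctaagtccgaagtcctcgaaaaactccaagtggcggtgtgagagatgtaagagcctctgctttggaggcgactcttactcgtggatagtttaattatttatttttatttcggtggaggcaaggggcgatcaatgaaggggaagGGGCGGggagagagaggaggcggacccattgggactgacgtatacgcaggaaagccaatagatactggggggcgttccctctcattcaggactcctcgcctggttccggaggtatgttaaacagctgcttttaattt
Tgif1: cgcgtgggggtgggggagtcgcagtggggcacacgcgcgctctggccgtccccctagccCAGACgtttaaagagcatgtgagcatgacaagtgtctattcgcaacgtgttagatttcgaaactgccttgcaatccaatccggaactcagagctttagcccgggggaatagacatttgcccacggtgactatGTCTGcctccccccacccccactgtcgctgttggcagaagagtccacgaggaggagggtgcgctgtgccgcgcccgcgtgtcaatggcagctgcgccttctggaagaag
Sertad2: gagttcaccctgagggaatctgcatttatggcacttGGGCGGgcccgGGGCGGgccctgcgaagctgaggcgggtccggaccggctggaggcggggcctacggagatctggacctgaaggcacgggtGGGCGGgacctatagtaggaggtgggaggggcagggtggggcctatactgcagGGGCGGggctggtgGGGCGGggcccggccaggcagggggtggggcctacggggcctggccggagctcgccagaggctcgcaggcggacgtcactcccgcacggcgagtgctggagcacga
Btbd17: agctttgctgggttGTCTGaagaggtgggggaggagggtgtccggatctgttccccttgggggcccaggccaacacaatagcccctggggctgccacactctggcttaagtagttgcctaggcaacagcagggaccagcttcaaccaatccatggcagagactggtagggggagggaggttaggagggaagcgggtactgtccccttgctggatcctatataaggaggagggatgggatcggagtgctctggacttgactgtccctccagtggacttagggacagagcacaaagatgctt

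These stretches lie at chr9:63757945-63758244 (minus strand) for Smad3, chr3:34649745-34650044 (plus) for Sox2, chr3:87970843-87971142 (plus) for Nes and chr9:57071790-57072089 (plus) for Sin3a. Those of Tgif1, Sertad2 and Btbd17 lie at chr17:70851685-70851984 (minus), chr11:20631727-20632026 (plus) and chr11:114795843-114796142 (minus). Sertad2, a transcriptional coregulator gene, held 5 GC boxes and no CAGAC, and Tgif1, which encodes a Smad corepressor, held 2 CAGAC and no GC box. Smad3 and Sox2 each held 2 GC boxes and no CAGAC, and Nes 2 GC boxes and 1 CAGAC. Both factors' peaks thus lay over promoters with and without either element. The CpG ratio, observed CpG over the number expected from the C and G content, was 0.753 in the Smad3, 0.819 in the Sox2, 0.702 in the Nes and 0.127 in the Btbd17 promoter.

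Most shared promoter peaks were largely common ground, although the rule asked for only 1 bp. Smad3 peaks covered a median of 91.4% of a shared promoter peak (95% interval 90.9 to 91.9). At least 50% was covered in 13571 of the 14835 (91.5%, 91.0 to 91.9). Counting peaks without any overlap too, this held for 85.4% of promoter JMJD3 peaks and 72.2% of all JMJD3 peaks. At least 90% was covered in 52.4% (51.6 to 53.3), the whole peak in 16.8%, and less than 10% in 180 peaks (1.21%). Overlapping JMJD3 peaks beyond 1 kb of a TSS, 36551 in number, had a median of 83.0% (82.7 to 83.3), with at least 50% covered in 87.6% (87.2 to 87.9) and at least 90% in 38.9%. Promoter peaks thus had more of their length in Smad3 peaks than distal ones, a difference that 1 library per antibody does not allow to be tested.

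**Figure D1:**
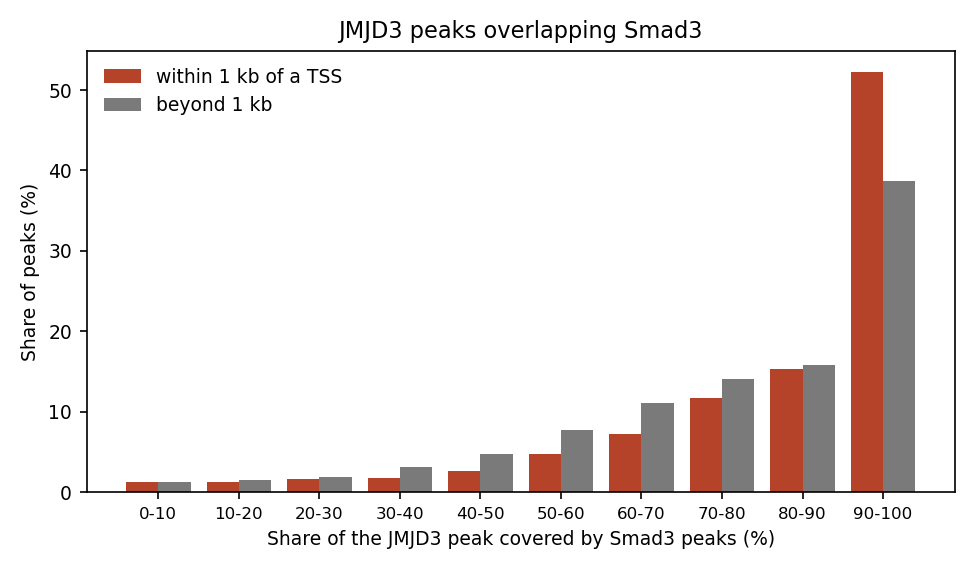
Share of each overlapping JMJD3 peak that lay in Smad3 peaks, in classes of 10 percentage points, for peaks within 1 kb of a TSS (14835) and beyond (36551). The top class, over 90%, holds 52.3% of promoter peaks and 38.7% of the others.

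The 2 factors' peaks met in several arrangements, and neither factor lay mostly to 1 side. Against the Smad3 peak that shared the most bases with it, the JMJD3 peak contained the whole Smad3 peak in 32.6% and lay wholly inside it in 16.8%. In 24.8% (24.1 to 25.5) the JMJD3 peak was displaced upstream of the Smad3 peak in the gene's direction, and in 25.9% (25.2 to 26.6) downstream. Midpoints of JMJD3 and nearest overlapping Smad3 peaks lay a median of 84.5 bp apart (80 to 85), and 58.9% lay within 100 bp. Both edges were identical in 7 of the 14835. A single Smad3 peak met 55.0% of shared promoter peaks, 2 met 35.6%, 3 met 8.48%, and the highest number was 6.

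Shared promoter peaks crowded onto the start site itself. Their median midpoint was -33 bp (-36 to -29), just upstream, with quartiles at -177 and 202.5 bp, and 58.6% (57.8 to 59.4) lay within 250 bp of the TSS. The TSS itself lay inside 56.8% (56.0 to 57.6). Of the 1052 promoter JMJD3 peaks without Smad3, 24.3% (21.8 to 27.04) lay within 250 bp and 16.3% contained the TSS, with a median midpoint of 133 bp (58 to 210). Of the 7252 promoter Smad3 peaks without JMJD3, 40.0% (38.8 to 41.1) lay within 250 bp and 31.1% contained the TSS, with a median of 105 bp. Peaks of 1 factor thus lay more often on the flanks, and more of them downstream than upstream of the TSS. Shared promoter peaks, which are JMJD3 peaks, were also wider than JMJD3 peaks without Smad3, with a median of 530 bp against 251 bp. For Smad3 the like comparison is with the 17678 promoter Smad3 peaks overlapping JMJD3. Of these, 54.8% lay within 250 bp and 47.7% contained the TSS. Their median width was 401 bp, against 311 bp for Smad3 peaks without JMJD3. A wider peak contains a given base more often, and the part of width in the shares containing the TSS was not tested. Among the JMJD3 peaks without Smad3, 591 (56.2%) were pieces of a joined region, peaks at most 10 bp apart, that also held a shared promoter peak.

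**Figure D2:**
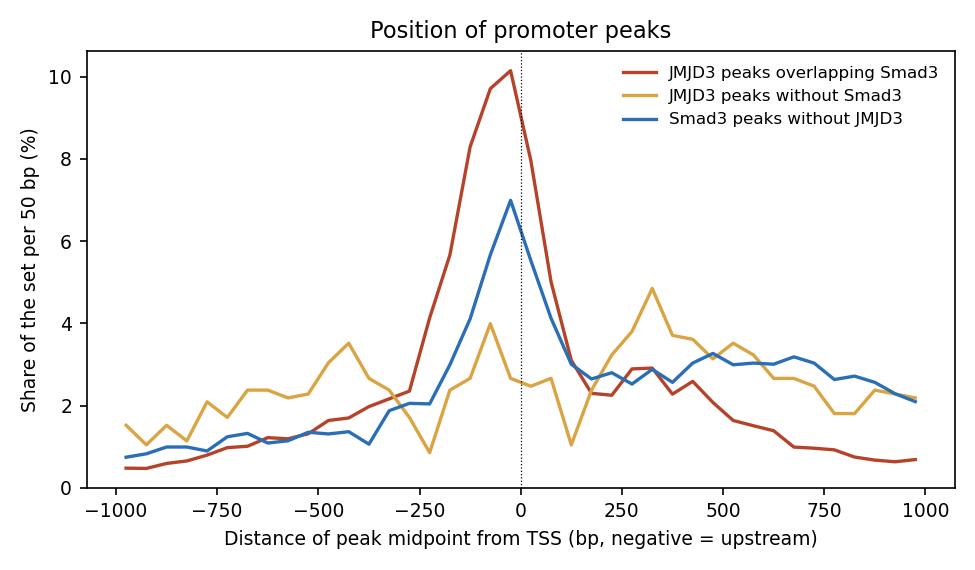
Distance of peak midpoints from the closest TSS in steps of 50 bp, as a share of each set, for JMJD3 peaks overlapping Smad3 (14835), JMJD3 peaks without Smad3 (1052) and Smad3 peaks without JMJD3 (7252). The shared set peaks just upstream of the TSS, and both other sets hold larger shares beyond 500 bp downstream.

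The share of JMJD3 promoter peaks with Smad3 was 93.4% over the whole window, and changed along it. It was 97.7% (97.3 to 98.1) between -250 and the TSS and 96.1% (95.4 to 96.7) in the next 250 bp downstream. At the outer ends it was 85.2% (81.9 to 88.2) from -1000 to -750 and 83.2% (80.1 to 86.0) from 750 to 1000. Over JMJD3 peaks at any distance it was 81.4%. Peak width moved with it: 80.6% of promoter JMJD3 peaks up to 250 bp wide overlapped Smad3, and 706 of 706 above 1000 bp did. Shared promoter peaks had a median width of 530 bp (521 to 540), and promoter JMJD3 peaks without Smad3 251 bp (241 to 261). The part of width in the difference along the window was not tested.

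Values at the limits of the rule show how the set was bounded. The outermost members included peaks at Abl2 (1000 bp), Vezf1 (-1000 bp) and Pdk2 (-1000 bp), and overlapping peaks at Tapbp and Dennd4a (1001 bp each) and Nfkbia (1003 bp) fell just outside. Peaks at Atg16l1, Pias4 and Eef2 shared 1 bp with Smad3 and were kept, whereas those at Xrcc6bp1, Zc3h10 and Atad5 abutted a Smad3 peak without sharing a base. Such contacts were rare among members, of which 65 (0.438%) shared 10 bp or fewer and 11504 (77.5%) shared at least 250 bp. Promoter JMJD3 peaks without Smad3 lay a median of 120 bp from the nearest Smad3 peak, and 476 of the 1052 lay within 100 bp of one.

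Many promoters carried more than 1 shared peak. Of the 9708 transcripts, 5957 (61.4%) had 1, 2660 (27.4%) had 2, 861 (8.87%) had 3 and 230 (2.37%) had 4 or more. Peaks were counted per listed transcript, and transcripts with the same start can divide its peaks. The 4 shared peaks of Skil, for example, fell to 2 transcripts with 1 start, so these counts can understate peaks per start site. A lone peak sat at a median of -43 bp (-47 to -39). Where there were 2, the upstream one had its median at -191.5 bp and the downstream one at 277 bp, 489 bp apart (480 to 496), and in 61.1% (59.2 to 63.0) they lay on either side of the TSS. In 2313 of these 2660 pairs (87.0%) the peaks were pieces of 1 joined region, so the spacing depends on where the authors' lists divide a continuous region. Joined, JMJD3 regions at shared promoters had a median width of 821 bp (820 to 830) and reached from -456 bp to 370 bp in the median. Smad3 regions had 790 bp (780 to 791) and reached from -422 bp to 368 bp. Each JMJD3 region was set against 1 Smad3 region, the one with the most bases in common with its first shared peak by coordinate. In these pairs JMJD3 reached farther upstream than Smad3 in 58.2% of the 9614 regions and farther downstream in 52.7%. Other Smad3 regions meeting the same JMJD3 region were left out, so the reach of Smad3 can be understated.

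Around the TSS of shared promoters, coverage by both lists was nearly complete and then fell steeply. The TSS of each of the 9708 transcripts was counted, also where transcripts have the same start. JMJD3 peaks covered 93.2% of these TSS at -100 bp and 92.6% at the start itself, and Smad3 peaks 92.6% and 92.5%. At 1 kb upstream JMJD3 covered 10.8% and Smad3 12.6%, and at 1 kb downstream 10.6% and 17.4%. Smad3 peaks thus covered the position 1 kb downstream at more of these TSS, from a list of 98086 peaks against 63154 for JMJD3. Any listed peak counted there, whether or not it continued from the promoter. In the pairs of joined regions, which count 1 Smad3 region each, JMJD3 reached farther downstream in 52.7% and Smad3 in 45.2%. These shares and the coverage are therefore not like measures. Of the 300 bases from -250 to +50, at least 150 lay in JMJD3 and Smad3 peaks alike at 90.7% (90.1 to 91.2) of the TSS.

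The number of bases that shared promoter peaks of a gene had in common with Smad3 was used to rank genes. It had a median of 690 bases (681 to 693) over 8856 protein-coding genes, with quartiles at 520 and 913, and counts several start sites of 1 gene together. Leaving out predicted and unnamed genes, the highest was Sin3a, a scaffold of histone deacetylase complexes, with 3241 of 3626 bases in 7 peaks at 3 listed transcripts. Tgif1 followed with 3215 of 3917 bases in 9 peaks at 4 transcripts, the most shared peaks among genes with a proper name. Sertad2 had 3152 bases in 7 peaks and Brd2, a bromodomain reader of acetylated histones, 3149 of 3205 bases in 6 peaks. Sept9, a septin of the cytoskeleton, had 3013 and Gse1 2924 bases. Ak1 (adenylate kinase), Cyth1, Pde4b (a cAMP phosphodiesterase) and Elmo2 had 2917, 2796, 2758 and 2697 bases. All 10 had at least 2 listed start sites, which lets more peaks count.

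At key genes of the pathway and of progenitors, the shared peaks tiled the start site. The Smad3 gene (Entrez 17127, chromosome 9, TSS at 63605801 on mm9, minus strand) had 4 shared peaks, centred at -809, -230, 395 and 910 bp. Smad3 peaks covered 100%, 98.8%, 98.1% and 83.9% of them, in all 2048 of 2153 bases. The gene of the factor is itself a shared promoter. At Smad7, the inhibitory Smad that blocks the receptors, 4 peaks centred at -836, -281, 155 and 744 bp had 2147 of 2253 bases in common. Skil, which encodes the Smad corepressor SnoN, had 1838 of 1874 bases in 4 peaks, the outermost at -975 and 711 bp. By shared bases Smad7 and Skil ranked 28 and 77 among all genes with a shared promoter peak.

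Id1 (Entrez 15901, chromosome 2), whose product sequesters E proteins, had 3 peaks at -992, -2 and 744 bp, with 2406 of 2433 bases in common (98.9%). The peak on its TSS ran from 152561501 to 152562511. Klf10, a TGF-beta early response gene, had 1305 of 1332 bases, nearly all in a peak of 1221 bp centred at -319 bp. Egr1, an immediate early factor, had 1215 of 1242 bases in 3 peaks. Among progenitor genes, Hes1, the Notch effector that restrains neurogenesis, had 1406 of 1523 bases in 3 peaks from -180 to 906 bp. Nes, the intermediate filament nestin, had 1256 of 1402 bases in 2 peaks at -737 and -27 bp. Sox2 had less in common, 832 of 961 bases, with 79.5% of the peak on its TSS covered, since the Smad3 peak ended 165 bp past the TSS and the JMJD3 peak ran on to 294 bp.

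Kdm6b, the gene of JMJD3, had no shared promoter peak. Its Smad3 peak of 440 bp was centred 176 bp downstream of the TSS, and its nearest JMJD3 peak, of 790 bp, was centred at 1531 bp. That JMJD3 peak had 633 bases in common with Smad3, so both factors met at this gene outside the window.

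**Figure D3:**
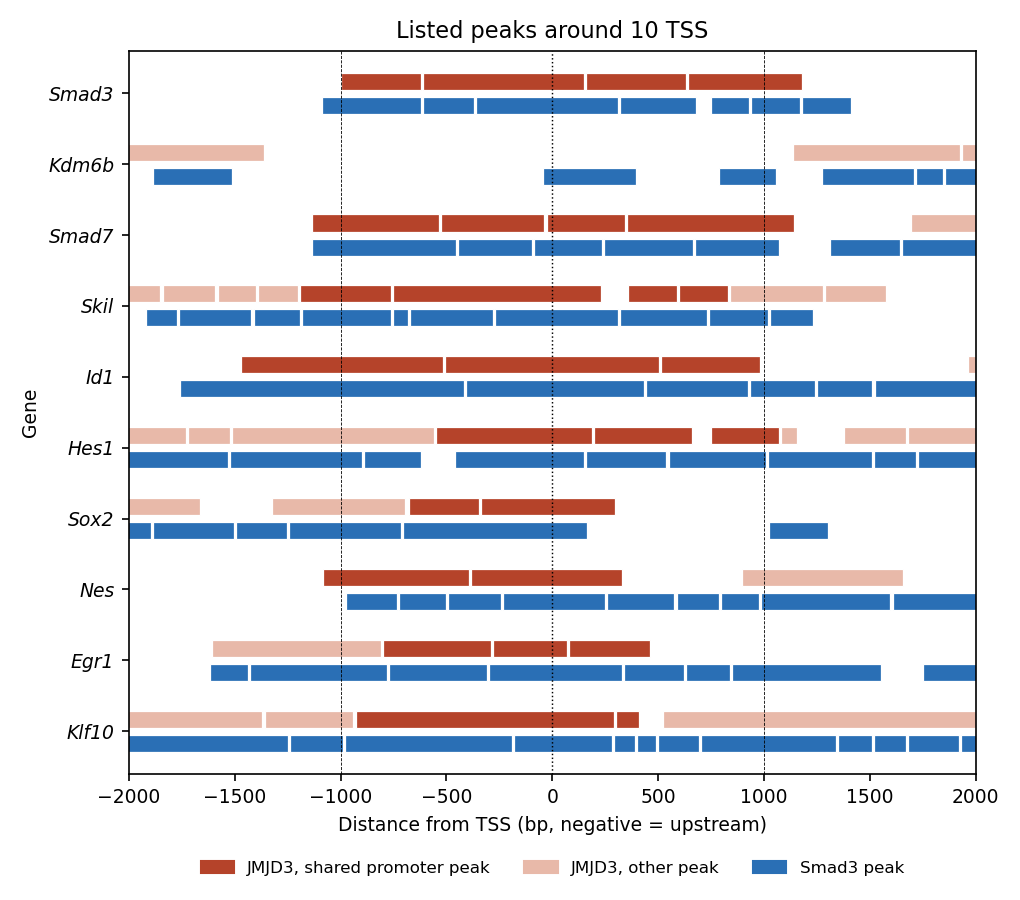
Listed peaks from 2 kb before to 2 kb after the TSS of 10 genes, with JMJD3 above and Smad3 below in each row. Dark red marks shared promoter peaks, light red other JMJD3 peaks, blue Smad3 peaks, and dashed lines the 1000 bp limit. At 9 genes the start is covered by both factors, and at Kdm6b by Smad3 alone.

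Gene lists were described against all coding genes, of which 8856 of 20953 (42.3%) had a shared promoter peak. Genes on the list of TGF-beta feedback inhibitors had one in 13 of 13 cases (95% CI 75.3 to 100), with a median of 1262 shared bases. They included Tgif1, Smad7 and Skil, and ranged down to the ubiquitin ligase gene Smurf2, with 510. The list also holds Ltbp3 (1405 bases) and Ltbp1 (1384). These are latent TGF-beta binding protein genes and not feedback inhibitors in a strict sense. Of 23 TGF-beta response genes, 19 had one (82.6%, 61.2 to 95.05), with a median of 1162 bases. Bhlhe40, a transcriptional repressor gene, had 1850, Tsc22d1 1805 and Cyr61, a matricellular protein gene, 1605 bases. Col1a1, Tgfbi and Zeb1 had a Smad3 promoter peak without JMJD3, and Zeb2 had neither.

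Among ligands, receptors and Smads, all 5 of the receptor-activated and common Smad genes in the list, Smad1 to Smad5, had a shared promoter peak, from 471 bases at Smad1 to 2048 at Smad3. So did the type I receptor genes Tgfbr1 (1094 bases), Acvr1b, Acvr1 and Bmpr1a, and the type II receptor genes Acvr2a, Acvr2b and Bmpr2. The 3 TGF-beta ligand genes Tgfb1, Tgfb2 and Tgfb3, the type II receptor gene Tgfbr2 and the co-receptor genes Tgfbr3 and Eng each had a Smad3 promoter peak without JMJD3. Inhba, a subunit of activin, had neither. In all 12 of 19 had a shared peak (63.2%, 38.4 to 83.7), an interval that includes the share of all coding genes.

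Among neural stem and progenitor genes, 27 of 30 had a shared promoter peak (90%, 73.5 to 97.9), with a median of 903 bases. Cdh2, the N-cadherin of neuroepithelial junctions, had 1665 bases, Hey1, a Notch effector, 1384, and the receptor gene Notch1 1334. Msi1 and Sox3 had Smad3 without JMJD3, and Prom1 neither. Of 12 neural stem cell markers, 10 had one (83.3%, 51.6 to 97.9), among them Pax6, Vim, Fabp7, Sox1 and Slc1a3. Neuronal markers had one at 3 of 8 (8.52 to 75.5) and endothelial and pericyte markers at 1 of 6 (0.421 to 64.1). Meningeal fibroblast markers had one at 1 of 5 (0.505 to 71.6) and microglial markers at 0 of 6 (0 to 45.9). The intervals of these neuronal, endothelial, fibroblast and microglial markers all include the 42.3% of all coding genes. Markers were counted and not used to name the cells. A promoter peak does not show that a gene is expressed.

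Proneural and neurogenic factors had a shared promoter peak in 15 of 30 cases (50%, 31.3 to 68.7), an interval that includes the 42.3% of all coding genes. Tcf3, which encodes an E protein, had 1442 bases in a single peak of 1610 bp. Olig2 had 1102 and Cux1 983 bases. Neurog2, Neurod1 and Eomes, which act in neuronal commitment of the cortex, had 281, 310 and 322 bases, under the lower quartile of coding genes with a shared promoter peak. Bcl11b, Dbx2, Dlx1, Dlx2, Neurog1 and Olig1 had Smad3 without JMJD3. Genes of mature neurons had one in 8 of 30 cases (26.7%, 12.3 to 45.9), and this interval also includes 42.3%. Camk2a stood out there with 1584 bases at 2 transcripts, and the other 7 ranged from 191 at Gad1 to 761 at the glutamate receptor gene Gria2. Gap43, a growth cone protein gene, had peaks of both factors that did not overlap.

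Immediate early genes, induced within minutes by growth factors, had a shared promoter peak at 27 of 30 (90%, 73.5 to 97.9). The antiproliferative gene Btg2 had 1765 bases, Maff 1696, the nuclear receptor gene Nr4a2 1374 and the AP-1 gene Fosl2 1332. Dusp2 and Fosl1 had Smad3 without JMJD3, and Nr4a3 neither. Genes that write or remove H3K27 and opposing H3K4 methylation had one at 19 of 22 (86.4%, 65.1 to 97.1). Ezh2 and Eed, core subunits of Polycomb repressive complex 2, had 1323 and 1265 bases, and the H3K4 methyltransferase genes listed as Mll2 and Mll1 had 1255 and 1156. Kdm6a, the paralogue of Kdm6b, had 402 bases. BAF remodelling, mediator and acetyltransferase genes had one at 20 of 21 (95.2%, 76.2 to 99.9), led by Ep300 with 1327 bases and Smarca2 with 1253. Chd8 had neither factor. The median was 693 bases in the methylation list and 697.5 in the BAF and mediator list. Both lay near the 690 of all coding genes with a shared promoter peak.

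Housekeeping families were also above the 42.3% of all coding genes. A shared promoter peak was found at 55 of 84 cytoplasmic (65.5%, 54.3 to 75.5) and 49 of 78 mitochondrial ribosomal protein genes (62.8%, 51.1 to 73.5). It was found at 34 of 45 proteasome, 41 of 55 translation initiation factor, 18 of 20 splicing factor and 21 of 27 cyclin genes. Eif5a and Eif4g2 had 1985 and 1816 bases, Ccne2 1784 and Srsf10 1478. Clustered histone genes had one at 55 of 67 (82.1%), but their near-identical copies can share reads, so single members are uncertain. Median shared bases were 596 to 757 in the ribosomal, proteasome, translation, splicing and histone families, near the 690 of all coding genes with a shared peak. Cyclins had 961, and the TGF-beta feedback inhibitor, TGF-beta response and immediate early lists had 1262, 1162 and 1023.

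Several families and lists lay below the share of all coding genes. Olfactory receptors had a shared promoter peak at 1 of 1108 genes (0.0903%, 0.00228 to 0.502), Olfr287. Hox genes had one at 1 of 39, keratins at 0 of 49 (0 to 7.25) and protocadherins at 6 of 69. Genes of liver, muscle, epidermis and gut had one at 1 of 24, Ttr, with 340 bases, microglial and blood genes at 2 of 16, Runx1 and P2ry12, and endothelial, pericyte and meningeal genes at 2 of 15, Foxc1 and Kdr. Only 65 olfactory receptor genes were named by any peak, and a gene without a name in the lists cannot be told apart from one missing in their annotation. Zinc finger genes named Zfp were nearer to the share of all coding genes, at 197 of 395 (49.9%, 44.8 to 54.9).

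**Figure D4:**
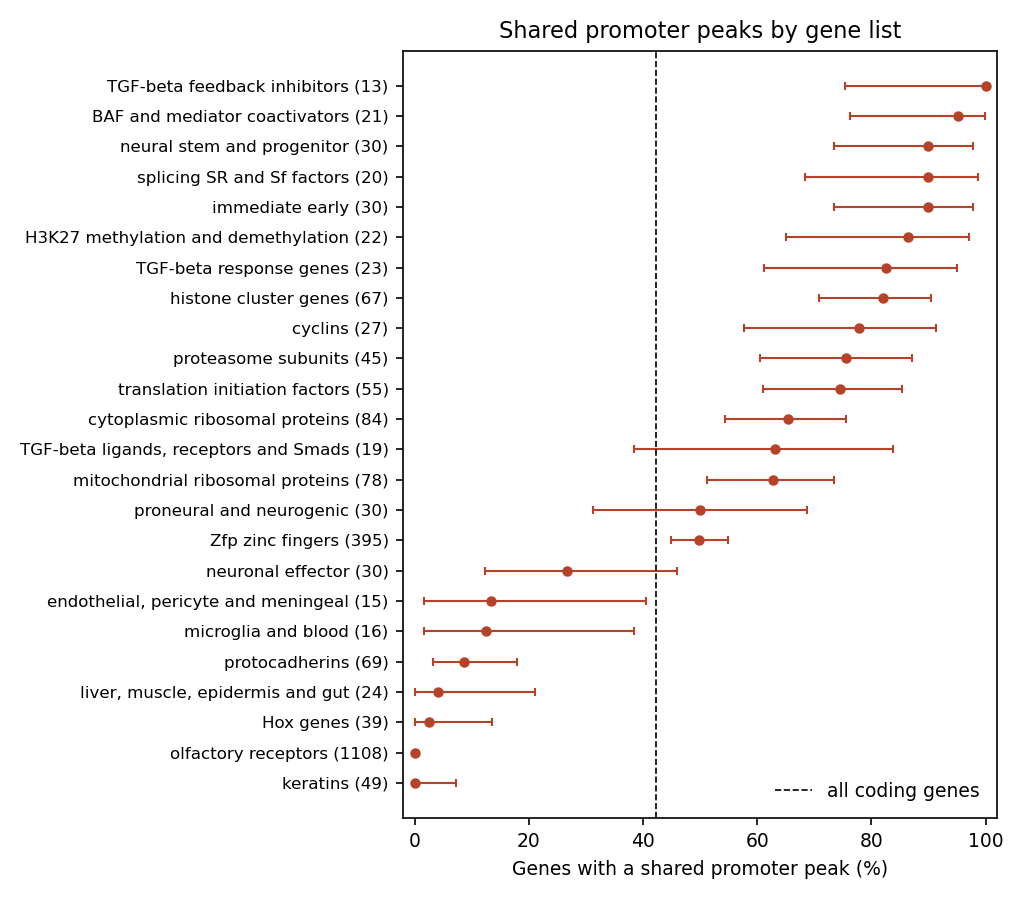
Share of genes with a shared promoter peak in 24 gene lists (number of genes in brackets), with exact 95% intervals. The dashed line is the 42.3% of all coding genes. The list of TGF-beta feedback inhibitors reaches 100%, and olfactory receptors and keratins lie at or near 0%.

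The base composition of the promoter, which the rule did not use, differed between the classes of genes. It was read for the 14083 coding genes with a single RefSeq promoter, of which 5747 (40.8%) had a shared promoter peak. The median CpG ratio was 0.812 (0.805 to 0.818) at genes with a shared promoter peak. It was 0.638 (0.515 to 0.701) at genes with JMJD3 without Smad3, 0.725 (0.713 to 0.741) with Smad3 without JMJD3, 0.215 (0.210 to 0.222) with neither and 0.586 over all. The median G+C content was 62.7% at genes with a shared promoter peak, 60.7% (58.7 to 63.0) with JMJD3 without Smad3, 58.7% with Smad3 without JMJD3, 48.3% with neither and 56.3% over all. A CpG ratio of at least 0.6 was found at 82.9% (81.9 to 83.9) of genes with a shared promoter peak and 48.9% of all.

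When these genes were divided into 10 classes by CpG ratio, a shared promoter peak was found at 2.20% (1.499 to 3.11) in the lowest and 76.4% (74.1 to 78.6) in the highest. The share went up at every step, most steeply between the fourth class (13.8%) and the sixth (58.8%), around ratios of 0.42 to 0.59. Smad3 without JMJD3 followed another course, from 1.91% in the lowest to 19.5% in the seventh class and 14.5% in the highest. Over the upper 5 classes shared peaks thus took a growing share while Smad3 without JMJD3 did not. The length of common ground varied less, with medians of 473 bases in the lowest and 701 in the highest class. Sequencing and mapping also vary with base composition, and their part in these shares was not tested.

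**Figure D5:**
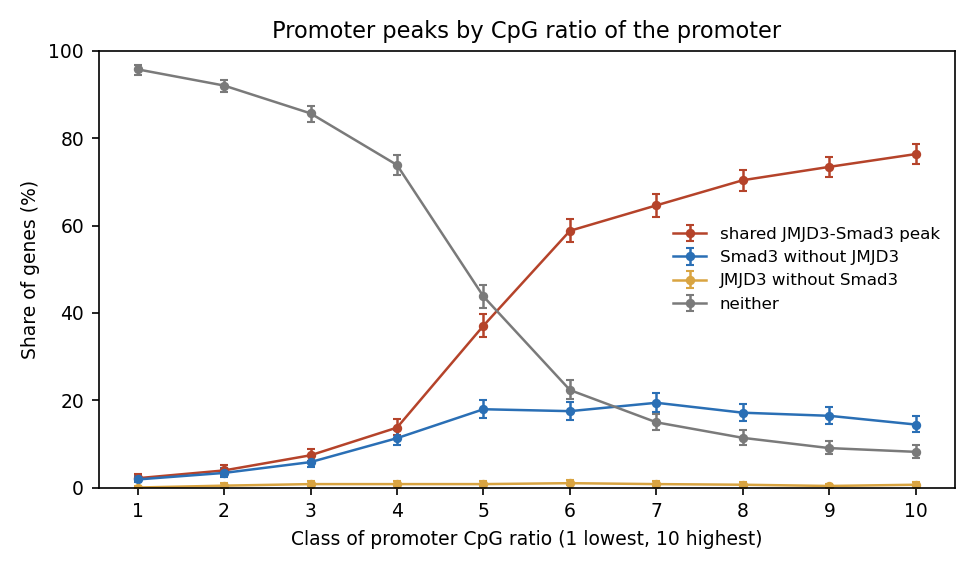
Share of coding genes with a shared promoter peak, Smad3 without JMJD3, JMJD3 without Smad3, or neither, in 10 classes of equal size by CpG ratio of the promoter (14083 genes, exact 95% intervals). Shared peaks go from 2.20% in the lowest to 76.4% in the highest class, and genes with neither from 95.7% to 8.23%.

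Short elements in the same 300 bases were counted on both strands as exact letter matches, which are no evidence of binding. The GC box GGGCGG, recognised by Sp and Klf factors, was in 74.2% (73.0 to 75.3) of promoters with a shared peak, 52.1% with Smad3 without JMJD3, 21.0% with neither and 47.0% of all. The Ets-type element CCGGAAG was in 19.6%, against 18.9% with Smad3 without JMJD3 and 12.3% of all. TATAAA was in 5.90% against 14.1% of all, and the AP-1 element TGANTCA in 3.53% against 7.23%. Promoters with Smad3 without JMJD3 held these in 7.85% and 5.42%. Of the promoters with a CpG ratio of at least 0.6, most had a shared peak themselves, and the GC box was in 78.7% with a shared peak, 69.8% with neither and 74.8% of all. CCGGAAG was there in 21.3% with a shared peak, 24.2% with Smad3 without JMJD3, 10.2% with neither and 20.4% of all. For TATAAA these shares were 5.16%, 6.92%, 9.35% and 5.99%. Below that ratio the GC box was in 52.0% (48.8 to 55.1) with a shared peak, 13.2% with neither and 20.3% of all. TATAAA was there in 9.46% with a shared peak and 22.0% of all, and TGANTCA in 5.70% and 10.99%. The differences from all promoters were wider below that ratio, but the CpG ratio itself was not equal there. Of the 10 classes by CpG ratio, the lowest had a shared peak at 2.20% of genes and the fifth at 37.1%. Promoters with a shared peak thus lay toward the upper end of that range, and the part of this was not tested.

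The Smad-type element CAGAC was in 47.2% (45.9 to 48.5) of promoters with a shared peak, 47.1% with Smad3 without JMJD3, 50.8% with neither and 48.9% of all. At a CpG ratio of at least 0.6 it was in 45.3% with a shared peak and 45.5% of all. Below that ratio it was in 56.4% (53.2 to 59.5) with a shared peak and 54.0% (49.9 to 58.0) with Smad3 without JMJD3. It was there in 51.3% with neither and 52.2% of all. The palindrome GTCTAGAC, 2 inverted GTCT elements counted apart from CAGAC, was in 0.278% (0.159 to 0.452) of promoters with a shared peak, against 0.227% of all. The GC-rich element GGCGCC, also bound by Smads, was in 25.1% against 15.7% of all, and in 28.3% against 27.6% among promoters with a CpG ratio of at least 0.6. Below that ratio it was in 10.1% (8.26 to 12.1) with a shared peak, 2.68% with neither and 4.23% of all. There too, promoters with a shared peak lay toward the higher CpG ratios, whose part was not tested. The E-boxes CAGCTG and CACGTG were in 14.6% and 10.7%, against 15.2% and 7.99% of all. CCAAT was in 41.2% against 40.0% and the cAMP response element TGACGTCA in 3.45% against 2.39%. With Smad3 without JMJD3, TGACGTCA was in 3.95%.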

How the data were processed

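Positions are on mm9, per the labels. The submitters' processing notes name CASAVA, Bowtie 0.12.7 and MACS 1.4, and their settings are not stated. The deposited lists hold positions, the signed distance from the closest TSS to the peak midpoint (recomputed to within 3.5 bp) and that gene, per library, with no score or read number, so depth is unknown and no test was made. Starts were read as 1-based.

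Overlaps, medians and intervals were computed in Python 3.11.15 with pandas 2.3.3 and scipy 1.17.1, and checked on simulated intervals with 0 mismatches. Coding genes and promoters came from RefSeq tables of GRCm38.p6, matched on Entrez ID (16331 of 16428 genes) and not by coordinates. Of several promoters of a printed gene, the one as far from the gene's end as in the lists was taken. The members and the 24 gene lists were chosen with earlier results of these data known. Genes were named by shared bases: a fixed set of 10, the 10 highest, and from each list the 4 highest and up to 2 without a shared peak. Others were chosen after their values were seen. Single genes that the rule would name but that are left out of the text are not reported here.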

Additional observations from a re-analysis of the deposited data

How the results depend on the processing

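Of 26 alternative values, 12 stayed within 1.5 times the main count or within its interval, among them the number of coding genes and the CpG ratio at every setting tried. Joining peaks at most 10 bp apart left 9626 shared promoter regions in place of 14835 peaks, with a median width of 830 bp and midpoints 90 bp apart. The share of promoter JMJD3 peaks with Smad3 was 95.3% within 500 bp and 92.2% within 2000 bp of a TSS. It was 85.4% when at least 50% of the JMJD3 peak had to be covered, 66.4% for 50% of both peaks, and 77.9% with only the wider 50% of Smad3 peaks. The median share covered was 93.8%, 81.1% and 92.0% with 50% coverage, the wider Smad3 peaks and the 500 bp window. With 50% coverage midpoints lay 75 bp apart. The median position was -28 bp within 2000 bp, and the median width 560 bp within 500 bp. No paired analysis was possible because there was 1 library per antibody. Peak lists without scores cannot separate weak from strong binding.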

Other observations

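Genes with more common ground at the promoter also had more overlapping peaks beyond 1 kb of a TSS. In 5 classes of equal size by shared bases, overlapping JMJD3 peaks beyond 1 kb of a TSS named the gene in 46.2% (95% CI 43.9 to 48.6) of the lowest class and 66.0% (63.7 to 68.2) of the highest, which began at 982 bases. The mean number of such peaks per gene was 1.89 and 3.85. Peaks beyond 1 kb can be pieces of the promoter region itself. At Skil a JMJD3 peak from 839 to 1279 bp followed directly on the shared promoter peak that ended at 829 bp. Shared bases also add up over several start sites of a gene, and the part of either in this link was not tested. Over all coding genes with a shared promoter peak, 51.8% had one, against 45.7% of genes with Smad3 without JMJD3 at the promoter. Genes named in the lists with neither factor at the promoter had one in 62.1%, but these enter the lists only through distal peaks.

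Some genes with shared promoter peaks had a RefSeq promoter with few CpG. Of 3228 coding genes with a CpG ratio under 0.2, 110 (3.41%) had a shared promoter peak. Those with the most shared bases included Zfp710 (2399), Luc7l2 (1675), Btbd17 (1513), the latent TGF-beta binding protein gene Ltbp3 (1405) and Mlc1 (1323), a gene of astrocytes. The promoters were matched by gene, and that the peaks lie on these bases was tabulated among these genes for Btbd17 alone. Jund was also among the 110, and its shared peak, with 1202 bases in common, was centred 946 bp downstream of the listed start.

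A start of the opposite strand within 1 kb upstream was listed for 11.1% (10.5 to 11.7) of transcripts with a shared promoter peak, 12.8% with Smad3 without JMJD3 and 8.99% of all listed transcripts. Non-coding transcripts were the closest for 515 shared promoter peaks (3.47%). The same share over all JMJD3 peaks is not given here, so this is a count without a background. By chromosome, the share of promoter JMJD3 peaks with Smad3 was lowest on X, at 300 of 338 (88.8%, 84.9 to 91.9), and highest on chromosome 9, at 868 of 907 (95.7%, 94.2 to 96.9), leaving aside the single peak on Y, which had none.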
